A study of Mus musculus with 4 samples.

Results

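9 genes used as markers of liver tumours and of liver progenitor cells were followed over 4 spatial transcriptomes of mouse liver: Afp, Gpc3, Golm1, Slpi, Ly6d, Cd24a, Prom1, Cd44 and Anpep. They were taken by symbol from the count tables and are 9 of the 32285 genes listed there. They were chosen by measured values of these same sections, namely the level of each gene in each section, the spots that share them and how compactly those spots lie. Such values are therefore given as a description, with no test, and tests are kept for the other genes in the spots where a marker was high.

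The assay was Visium, in which a tissue section lies on a printed array of barcoded spots and each captured messenger RNA is counted once through its unique molecular identifier (UMI). The sections STAM16w and STAM20w came from STAM mice, a metabolic model of hepatocellular carcinoma made to resemble metabolic dysfunction-associated steatohepatitis with type I diabetes. The sections DEN22w and DEN30w came from the DEN+CCL4 model, in which DNA damage and fibrosis drive the tumours; the names stand for diethylnitrosamine, a carcinogen that alkylates DNA, and carbon tetrachloride, a liver toxin. The labels name no strain, sex or age, do not say from when weeks were counted, and do not say whether the sections came from separate animals. Each model had 2 sections, 1 per time, so time, animal and section cannot be told apart. P-values across sections rest on the spread between these few sections, which may be technical. The fit behind them draws each gene's spread toward that of other genes, so no p-value measures that gene's spread alone. No untreated liver and no pathologist's outline of tumour tissue was analysed here.

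Afp encodes alpha-fetoprotein, the main plasma protein of the fetus, which the yolk sac and fetal liver secrete and which adult hepatocytes nearly cease to make. Gpc3, a heparan sulphate proteoglycan of the cell surface, is another fetal liver gene that many hepatocellular carcinomas express again. Cd24a, Prom1 (CD133), Cd44 and Anpep (CD13) are surface proteins used to sort liver progenitor-like or tumour-initiating cells, though none is particular to them: Cd44, a hyaluronan receptor, is carried by leukocytes and activated stromal cells, and Anpep is an aminopeptidase of the bile canalicular membrane of ordinary hepatocytes. Slpi is a secreted inhibitor of leukocyte proteases, Golm1 a Golgi membrane protein that is shed into blood in liver disease, and Ly6d a small lipid-anchored surface protein of the Ly6 family.

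The promoter sequences of Afp and Slpi are shown because Afp gave the most compact pattern of the 9 in both STAM sections and Slpi the largest fold of the 9 between the sections of each model. Each run is the 250 bases before the transcription start, 5′ to 3′ on the gene's strand, from RefSeq on GRCm38.p6: chr5:90490464-90490713, plus strand, for Afp and chr2:164356508-164356757, minus strand, for Slpi. Capitals mark GTTAAT, the half-site of the hepatocyte nuclear factor HNF1, searched on both strands, and TATAAA, the TATA box, searched on the gene's strand.
Afp: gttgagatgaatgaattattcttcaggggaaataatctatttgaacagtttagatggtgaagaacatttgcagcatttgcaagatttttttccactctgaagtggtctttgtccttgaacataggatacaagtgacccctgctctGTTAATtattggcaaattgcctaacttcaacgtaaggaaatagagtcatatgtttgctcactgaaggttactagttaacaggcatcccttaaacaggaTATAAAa
Slpi: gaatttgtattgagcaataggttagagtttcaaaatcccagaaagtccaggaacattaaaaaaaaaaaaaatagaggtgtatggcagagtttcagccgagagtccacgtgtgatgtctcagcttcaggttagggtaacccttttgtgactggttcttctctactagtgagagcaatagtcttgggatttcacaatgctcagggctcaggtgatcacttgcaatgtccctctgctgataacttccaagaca
In Afp, GTTAAT began 105 bases and TATAAA 7 bases before the start, and the motifs did not overlap. These are matches of letters, and whether they work as an HNF1 site or a TATA box was not tested. Of 32851 mouse promoters of the same length, 6.43% held GTTAAT and 7.59% held TATAAA. Neither run of letters was present in the Slpi window. 7 of the 9 genes had an entry in the promoter table; Ly6d and Cd24a had none.

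Spots with at least 500 UMIs and 250 detected genes were kept, 2080 to 2968 per section, with 20700642 to 40008457 UMIs per section and medians of 7302.5 to 12761 UMIs per spot. Levels are in CPM, the gene's UMIs scaled to the total UMIs of the section or spot group, with exact Poisson intervals at 95% that cover counting error only. Alb was detected in every kept spot of all 4 sections and Hnf4a, the hepatocyte transcription factor, in 83.3% to 87.5%, so hepatocyte RNA was present throughout. Pairs of sections shared 1635 to 2091 barcodes, which name array positions, and at most 1 shared barcode per pair had the same UMI total in both. A spot can hold several cells or parts of them, and fewer cells of a type cannot be told apart from less RNA per cell.

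In both models the later section held more Slpi, Cd24a, Ly6d, Cd44 and the sparser Prom1 than the earlier one, and the difference was widest for Slpi. Golm1 was also higher in both later sections, by less in STAM. Afp differed widely between the STAM sections alone, Golm1 and Prom1 reached their highest levels in the later DEN+CCL4 section, and Anpep hardly differed between sections. With 1 section on each side there was no test; folds are later over earlier with intervals for counting error.

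Afp (chr5:90490714-90508907) stood at 54.4 CPM in STAM20w and at 12.8 CPM in STAM16w, against 5.07 in DEN22w and 6.59 in DEN30w. The intervals of the DEN+CCL4 sections overlapped and both lay below those of the STAM sections. The fold was 4.26 (3.75 to 4.86) in STAM and 1.3 (1.03 to 1.64) in DEN+CCL4. Gpc3 (chrX:52272426-52613974) was sparse, at 0.290, 0.650, 1.34 and 2.87 CPM, listed here and for later markers from STAM16w through STAM20w and DEN22w to DEN30w, which rested on 6, 26, 30 and 100 UMIs. DEN30w was above DEN22w, whose interval overlapped that of STAM20w, and the folds were 2.24 (0.903 to 6.66) in STAM and 2.15 (1.42 to 3.35) in DEN+CCL4. Golm1 (chr13:59634996-59675784) measured 3.38, 4.77, 5.83 and 17.1 CPM. DEN30w stood apart and the other sections overlapped with their neighbours in the order, with folds of 1.41 (1.07 to 1.88) in STAM and 2.93 (2.42 to 3.57) in DEN+CCL4.

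Slpi (chr2:164354070-164356507) was at 3.33 CPM in STAM16w and 3.69 in DEN22w, and at 50.7 in STAM20w and 50.1 in DEN30w. The earlier sections did not differ beyond their intervals, nor did the later ones, and the folds were 15.2 (12 to 19.6) in STAM and 13.6 (10.9 to 17.1) in DEN+CCL4. Ly6d (chr15:74762056-74763567) was at 262, 992, 55.4 and 294 CPM, with folds of 3.79 (3.68 to 3.9) and 5.3 (5.0 to 5.63). No intervals of Ly6d overlapped, and a Ly6d UMI was present in 83.5%, 94.8%, 32.2% and 83.0% of spots.

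Cd24a (chr10:43579169-43584265) was at 3.53, 29.9, 1.69 and 5.39 CPM, with STAM20w 5.55 times above DEN30w, the next in order. Its folds were 8.48 (6.70 to 10.9) in STAM and 3.19 (2.24 to 4.64) in DEN+CCL4. Prom1 (chr5:43993621-44102047) was at 0.628, 3.32, 2.09 and 8.29 CPM, all 4 apart, with a fold of 3.96 (2.90 to 5.51) in DEN+CCL4 and of 5.29 (2.99 to 10.2) in STAM, where both levels stayed under 5 CPM. Cd44 (chr2:102811141-102901669) was at 13.7, 31.5, 11.2 and 27.9 CPM, with folds of 2.30 (2.02 to 2.62) and 2.50 (2.17 to 2.88). Anpep (chr7:79821803-79848210) stayed between 57 and 70.3 CPM, with folds of 1.23 (1.15 to 1.32) and 0.868 (0.812 to 0.928).

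Counting folds of at least 2 among genes that reached 5 CPM, 5 of the 9 markers were higher in the later STAM section, beside 7.12% of 9943 genes, and none lower, beside 2.75%. In the later DEN+CCL4 section 6 of 9 were higher, beside 3.09% of 10071 genes, and none lower, beside 0.874%. The markers were chosen with these levels known, so nothing is read from those shares. The later sections were also deeper, and after thinning every spot to 2000 UMIs the share of spots with a Slpi UMI was 0.711% and 8.93% in the earlier and later STAM sections and 0.79% and 9.0% in the DEN+CCL4 sections. Before thinning these shares were 2.88% and 32.7%, and 2.77% and 32.5%. Spots under 2000 UMIs were left out of the thinned shares, which rest on 2038, 2623, 2547 and 2630 spots.

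**Figure D1:**
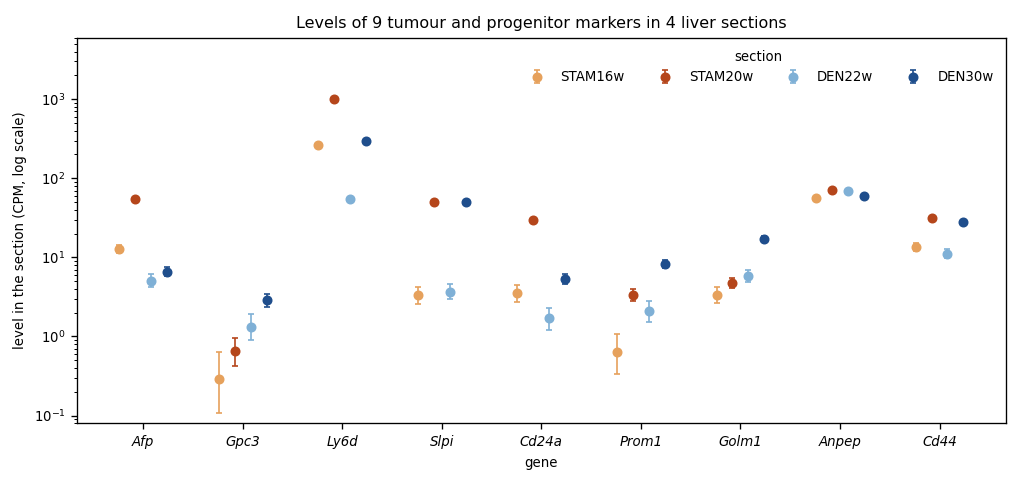
Level of each marker (CPM, log axis) in the 4 sections, 1 point per section with its exact 95% Poisson interval. Slpi lies near 50 CPM in STAM20w and DEN30w against under 4 in the earlier sections, whereas the Anpep points lie between 57 and 70.3.

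Between the models Afp was higher in both STAM sections than in either DEN+CCL4 section, and Gpc3 and Golm1 were higher in both DEN+CCL4 sections. For the other 6 markers the sections of the models overlapped. The estimates from section sums, 2 against 2, given as log2 STAM over DEN+CCL4 with SE, were 2.66 ± 0.68 for Afp, 2.37 ± 1.06 for Cd24a, 2.02 ± 0.96 for Ly6d, -1.94 ± 0.56 for Gpc3 and -1.3 ± 0.48 for Golm1. Prom1 was at -1.19 ± 0.9, Cd44 at 0.38 ± 0.52, Slpi at 0.17 ± 1.55 and Anpep at 0.15 ± 0.21. Several rested on 1 section: without STAM20w the estimate was 1.35 for Afp, 0.22 for Cd24a, 0.84 for Ly6d and -2.76 for Slpi, and without DEN30w it was 2.91 for Slpi and -0.42 for Golm1. Since the markers were chosen with these levels known, no test of them is given. Over all 14417 genes edgeR's quasi-likelihood test called 0.271% higher and 0.146% lower in STAM, and 57.7% had both sections of a model above both of the other. STAM and DEN+CCL4 sections also differed in week, 16 and 20 against 22 and 30, so model and time cannot be told apart.

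Spots with Afp clustered in the STAM sections and were scattered in the DEN+CCL4 sections. Moran's I, which is near 0 for scattered spots and rises as neighbours have alike values, for Afp was 0.227 in STAM16w and 0.458 in STAM20w, against -0.0067 in DEN22w and 0.0149 in DEN30w. Among the genes detected in at least 1% of the section's spots, these were the 99.7, 99.9, 7.5 and 22.4 percentiles. The largest connected group of Afp-detected spots held 49 of 178, 208 of 699, 3 of 109 and 5 of 202. Slpi had a Moran's I of 0.0594 in STAM16w and 0.289 in STAM20w, and of 0.0483 in DEN22w and 0.123 in DEN30w. Cd24a measured 0.0546, 0.284, 0.0371 and 0.0418 in the 4 sections, and Ly6d 0.0991, 0.253, 0.0794 and 0.233. Anpep measured 0.0201, 0.193, 0.0337 and 0.13, and Cd44, Golm1, Prom1 and Gpc3, where measured, did not exceed 0.111 in any section. The median over all genes was 0.0114 in STAM16w and 0.0463 in the deeper STAM20w, and 0.0199 in DEN22w and 0.0436 in the deeper DEN30w. Against that shift the percentile went from 94.9 to 99.0 in STAM and from 78.1 to 83.0 in DEN+CCL4 for Slpi, and from 98.7 to 98.3 and from 89.7 to 98.8 for Ly6d, and the part of depth in these values was not tested.

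**Figure D2:**
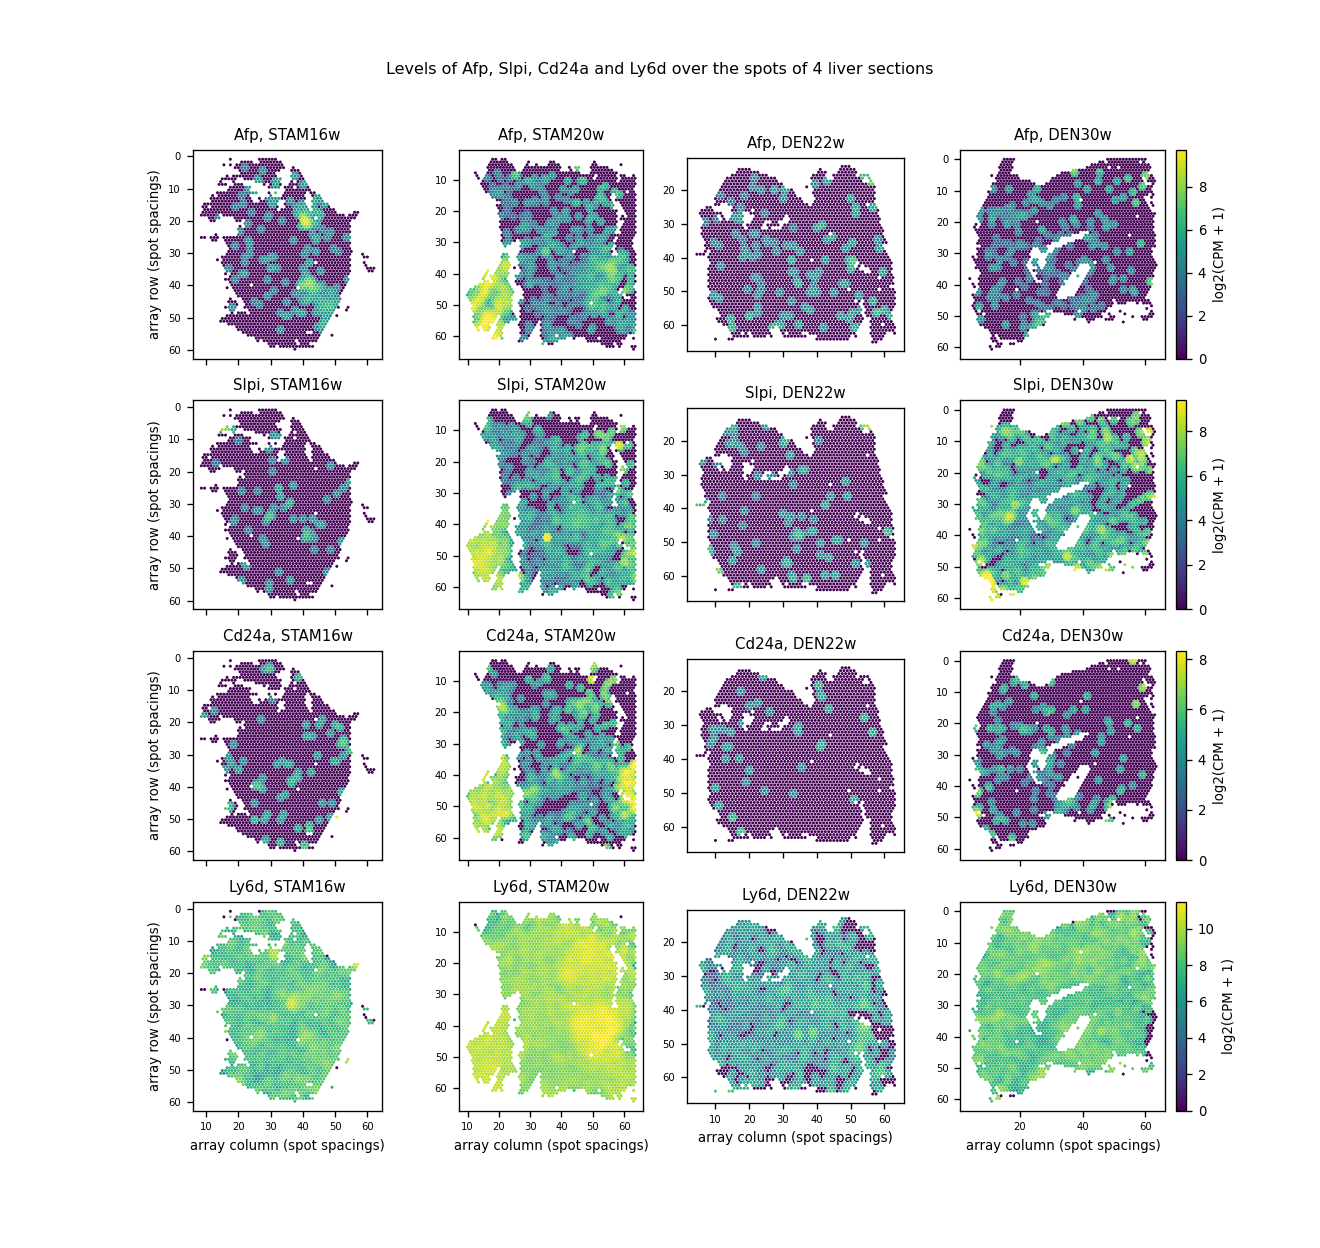
Array maps of the 4 sections (columns) for Afp, Slpi, Cd24a and Ly6d (rows); each point is a spot, coloured by log2(CPM + 1) over the spot and its touching spots, with 1 colour scale per gene. Afp forms compact bright areas in STAM16w and STAM20w and isolated discs around single positive spots in DEN22w and DEN30w.

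STAM16w held small Afp foci of unlike make-up. Its richest spot had 15 Afp UMIs of 8363 and none of Gpc3, Slpi, Cd24a, Prom1, Golm1, Anpep, Cd44 or Ly6d. It belonged to a connected group of 6 spots with 2 or more Afp UMIs that reached 920 CPM, or 18.6% of the section's Afp UMIs. In that group Spp1, the osteopontin gene of ductular and stressed hepatic cells, was 4.59 times its level in the other spots (2.71 to 7.27). The haemoglobin gene Hbb-bs was at 6.56 times (4.81 to 8.75), and Cyp2a4 and Fabp4 were at 0. Counting error allows ratios up to 0.409 for Cyp2a4 and 1.18 for Fabp4, so Fabp4 did not differ beyond it. A second group of 11 spots had Afp at 263 CPM. Cyp2a4, a cytochrome P450, was 7.09 times higher there (5.90 to 8.47) and Fabp4, a fatty acid carrier, 4.42 times higher (2.92 to 6.42). Spp1 had 4 UMIs in it, a ratio of 0.487 (0.132 to 1.25), which is within counting error. H19, the imprinted fetal RNA, had no UMI in either group; with 53254 UMIs in the group of 6 spots and 110172 in that of 11, counting error allows ratios up to 17.0 and 8.19. These groups were picked for Afp, so the contrast is a description.

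STAM20w held 4 regions, set apart without using the 9 markers but with earlier results known. The first is a detached piece of tissue, the second largest connected set of spots, with 273 of 2833 spots. The others are connected areas rich in genes that are no members: 196 spots around Cpe, Slc7a11, Gpx2 and Nkd1 (Cpe patch), 231 around Cib3, Akr1c18, Serpina12 and Serpinb6b (Cib3 patch) and 78 around Ankrd1, Dcdc2a, Fgfbp1, Lce6a and Myo5c (Ankrd1 edge). The Ankrd1 edge was shallow, with a median of 3058.5 UMIs per spot and 9.37% mitochondrial UMIs, against 13262 and 4.05% in the rest.

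The detached piece carried most of the Afp. Afp was at 348 CPM there and 20.6 elsewhere, a ratio of 16.9 (15.4 to 18.5), and the piece held 66.0% of the section's Afp UMIs in 9.64% of its spots. Slpi was at 222 against 31.1 CPM (ratio 7.14, 6.53 to 7.80) and Cd24a at 135 against 17.9 (7.53, 6.71 to 8.45). H19 was at 141 against 4.71 CPM, a ratio of 29.9 (25.1 to 35.7). By contrast Anpep, at 0.986 times the level elsewhere (0.870 to 1.11), and Cd44, at 1.03 times (0.850 to 1.23), did not differ beyond counting error, and Ly6d was 1.18 times higher. Prom1 and Golm1 were 2.43 and 2.84 times higher on 29 and 47 UMIs. Alb was 1.37 times higher in the piece. The median depth, 13876 UMIs per spot, was close to that of the rest of the section.

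Afp, Slpi and Cd24a shared spots there. All 3 had a UMI in 171 of the 273 spots of the piece (62.6%, exact interval 56.6% to 68.4%), in 49 of the 2560 spots outside it (1.91%, 1.42% to 2.52%), in 13 of 2968 spots of DEN30w and in none of STAM16w or DEN22w, which allows a share of up to 0.144% and 0.109% there, as 3 spots of the total. Within the piece the lowest, median and highest counts per spot were 0, 3 and 28 for Afp, 0, 3 and 18 for Slpi and 0, 2 and 9 for Cd24a. Between its spots log2(CPM + 1) of Afp and Slpi correlated at r = 0.32, of Afp and Cd24a at 0.29 and of Slpi and Cd24a at 0.28, over 273 spots that share 1 library; such weak values in sparse counts are no finding.

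Among all 13166 genes detected in at least 1% of the section's spots, 64.6% had a higher CPM in the piece than elsewhere, and counts on the fixed marker lists are read beside that share. 9 of 12 cholangiocyte and ductular genes were higher in it, with a summed level of 596 against 181 CPM, 10 of 12 stellate cell genes (631 against 410), all 14 proliferation genes (450.1 against 269.8) and 8 of 10 T and NK cell genes (44.2 against 19.3). None of 10 pericentral hepatocyte genes was higher (1849 against 7234), and 1 of 10 Wnt target genes was (169 against 637). Of the imprinted and fetal liver genes 5 of 12 were higher and 3 had no UMI (200 against 79.6 CPM), with H19 most of the sum. Of the other liver tumour and progenitor genes 10 of 18 were higher (2005 against 1276 CPM). Both of these shares lie below that of all genes. Macrophage genes, 3 of 12 higher with 1056 against 1356 CPM, and B and plasma cell genes, 4 of 10 with 181 against 222 CPM, were lower in sum. All 14 proliferation genes were higher in the Cpe patch too (505.6 against 258.8 CPM), beside 58.3% of all genes. In the Ankrd1 edge 12 of 14 were (533.7 against 286.5 CPM), beside 56.8%. The ductular, stellate cell and T and NK cell counts of the piece lie near its share of all genes for lists of 10 or 12 genes. Little is read from them, and Spp1 alone made up 508 CPM of the ductular sum. The part of these cell types in the marker levels was not tested.

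The other regions differed from the piece in their mix of high markers, but shared some with it. Cd24a was high in the Ankrd1 edge too, Prom1 in that edge and the Cpe patch, and Golm1 in the Cib3 patch. Ly6d was above its level elsewhere in the Cpe and Cib3 patches as well, and Afp in the Cpe patch. Elsewhere means all spots of the section outside the region. For these regions it includes the detached piece, whose high Afp, Slpi and Cd24a lower the ratios of these genes. Outside all 4 regions Afp was at 12.9 CPM and Cd24a at 15.6 CPM. Ratios under 1 for Afp and Cd24a therefore do not show levels below those. In the Cpe patch Ly6d reached 2060.2 CPM against 847 elsewhere (ratio 2.43, 2.38 to 2.49), Anpep 162 against 57.8 (2.81, 2.58 to 3.05), Prom1 8.56 against 2.61 (3.28, 2.21 to 4.79) and Cd44 46.4 against 29.5 (1.57, 1.35 to 1.82), while Cd24a was at 0.506 times the level elsewhere (0.396 to 0.637). Afp was 1.3 times higher there (1.15 to 1.46). All 10 Wnt target genes and all 12 NRF2 and xenobiotic defence genes on the fixed lists were higher in the patch, beside 58.3% of all genes, and Nkd1, Gpx2 and Slc7a11 on those lists had served to draw it. In the Cib3 patch Golm1 was 3.67 times higher (2.27 to 5.70) and Ly6d 1.51 times higher (1.44 to 1.58), while Afp was at 0.312 times the level elsewhere (0.202 to 0.462). In the Ankrd1 edge Cd24a reached 213 CPM, 7.45 times the level elsewhere (5.69 to 9.61), and Prom1 30.4 CPM on 9 UMIs (9.74, 4.35 to 19.1). All 12 cholangiocyte and ductular genes were higher in this shallow edge, beside 56.8% of all genes, with 2591 against 206 CPM, and Spp1 was 11.6 times higher; Afp there was at 0.620 times (0.297 to 1.14).

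Thus Cd24a was high in areas that differed in Afp: the detached piece, with Afp at 348 CPM, and the Ankrd1 edge, with Afp at 33.8 CPM on 10 UMIs. Afp was at 12.9 CPM outside all 4 regions. Without all 4 regions the level in STAM20w over STAM16w was 1.01 for Afp, 8.19 for Slpi, 4.43 for Cd24a, 2.96 for Ly6d and 2.12 for Cd44, against 4.26, 15.2, 8.48, 3.79 and 2.30 over the whole section. STAM16w was kept whole in these ratios, with its Afp foci. Without the detached piece alone the Afp ratio was 1.62. Golm1 and Anpep, which differed little, moved from 1.41 to 0.957 and from 1.23 to 0.993.

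**Figure D3:**
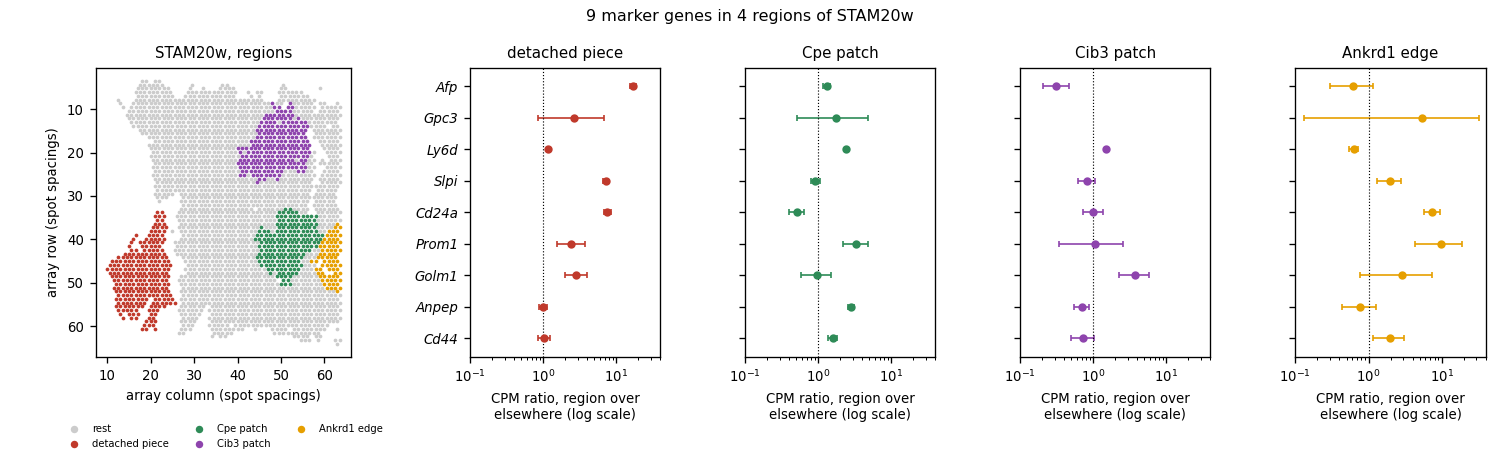
Left, the 4 regions on the STAM20w array; right, the level of each marker in a region over its level elsewhere in the section (CPM ratio, log axis) with exact 95% intervals. Afp, Slpi and Cd24a lie far right of 1 in the detached piece, Ly6d, Prom1 and Anpep in the Cpe patch; Gpc3 had no UMI in the Cib3 patch and is not drawn there.

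Slpi peaked in 2 kinds of spot. In DEN30w the 11 spots with 10 or more Slpi UMIs held 17 to 759 UMIs of Igkc, the immunoglobulin kappa constant gene of plasma cells, all at or above the 96.5 percentile of the section for Igkc, and 0 or 1 UMI of Afp. The richest had 80 Slpi UMIs, 759 of Igkc and 24 of Jchain among 9969. In STAM20w 1 spot outside the detached piece had 81 Slpi, 585 Igkc and 592 Ighg2b UMIs with no Afp. The other 12 such spots of STAM20w lay in the detached piece, with 0 or 1 UMI of Igkc and 1 to 18 of Afp. Over all spots with a Slpi UMI, Igkc was at 576 against 223 CPM in DEN30w, and at 527 without the spot richest in Slpi. In STAM20w it was at 58.7 against 24.4 CPM, but that difference was 1 spot: without it Igkc was at 24.3 CPM. The earlier sections had 15.9 against 18.4 CPM (STAM16w) and 8.14 against 9.94 (DEN22w). Immunoglobulin-rich Slpi spots were thus several in DEN30w and 1 in STAM20w, and whether plasma cells themselves held the Slpi RNA was not tested.

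**Figure D4:**
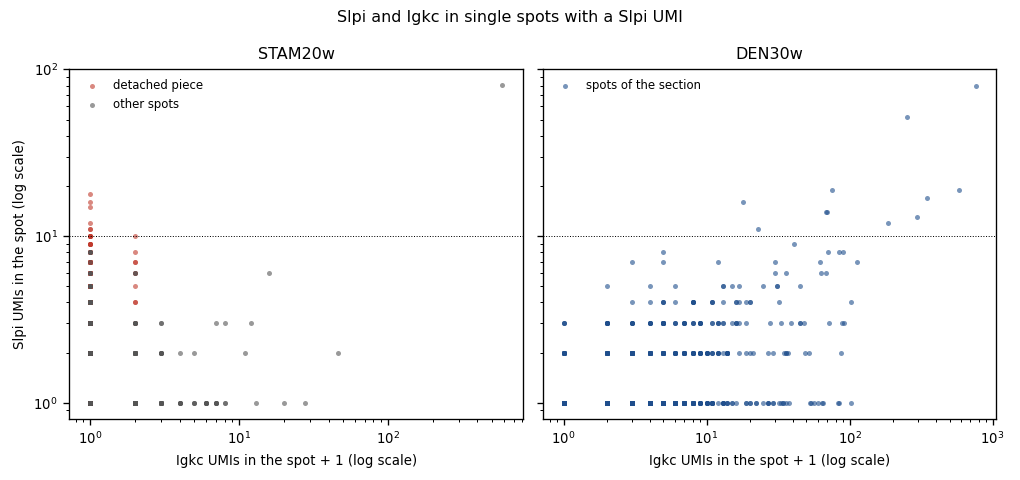
Slpi against Igkc in each spot with a Slpi UMI (UMIs per spot, log axes; 1 was added to Igkc), STAM20w left with the detached piece in red, DEN30w right; the dotted line marks 10 Slpi UMIs. Above the line, STAM20w spots have 0 or 1 Igkc UMI save 1 with 585, and all 11 DEN30w spots have 17 or more.

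To ask what else differed where a marker was high, spots with the marker were matched within each section to spots with little or none of it and a like UMI total. High spots were those with a UMI of the marker, or the top 20% by CPM where 20% or more of the spots had one. Counts of all other genes were summed per section and class and tested with edgeR's quasi-likelihood test, section as a block, at a Benjamini-Hochberg adjusted p of 0.05. Ratios below are high over low spots as log2, in the order STAM16w, STAM20w, DEN22w, DEN30w. Comparisons of different markers share spots and are not independent of each other. Without the section block no gene passed for any marker, with 13 to 65 genes at an unadjusted p under 0.05, and DESeq2 called few of these genes except for Ly6d, as given with each count.

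Among the markers themselves, described over the same matched spots, Afp was higher in Slpi-high spots in all 4 sections, by 1.55 to 10.0 times, with intervals above 1 in STAM20w and DEN30w. Ly6d was higher in Slpi-high spots in all 4 with intervals above 1, by 1.26 to 1.75 times. Cd24a was 3.97 times higher in Slpi-high spots of STAM20w (3.31 to 4.78) and 1.61 times higher in those of DEN30w (1.03 to 2.55). In STAM16w it was at 0.751 times (0.110 to 4.44) on 3 against 4 UMIs, and DEN22w had 1 against 0. In Afp-high spots Cd24a was 3.91 times higher in STAM20w (3.28 to 4.68), 1.43 in DEN30w (0.686 to 3.06) and 0.994 in STAM16w on 6 UMIs in each class. Gpc3 was higher in Afp-high spots in all 4 sections, but on 2 to 15 UMIs with every interval reaching below 1. No marker was lower in the high spots of another by an interval below 1, except Ly6d and Anpep in Cd44-high spots of 1 section each.

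Afp-high spots differed from low spots in few genes, among them Maoa, Plat and the Wnt feedback genes Axin2 and Nkd1. 17 genes rose and 1 fell of 10510 tested (0.162% and 0.00951%, in all 0.171%), by comparison of 109 to 567 spot pairs per section. Maoa, a monoamine oxidase, rose by 1.19 ± 0.13 (SE) with log2 ratios of 0.90, 1.33, 2.22 and 0.87 (edgeR quasi-likelihood adjusted p = 1.03e-05). Plat, the tissue plasminogen activator, rose by 1.60 ± 0.21 with ratios of 2.58, 1.94, 1.26 and 0.17 (edgeR quasi-likelihood adjusted p = 0.0097). 2 of 8 tested Wnt feedback genes rose, Axin2 (0.85 ± 0.18) and Nkd1 (1.12 ± 0.19, with ratios of 0.34, 1.49, 0.00 and 0.00). The median over the list was 0.33 beside -0.0014 over all genes. In the Afp-rich detached piece, however, 1 of 10 genes of this list was higher than elsewhere (169 against 637 CPM). All 10 were higher in the Cpe patch, which was drawn in part with Nkd1. The other called genes on fixed lists were Col1a1 (0.62 ± 0.11), higher in all 4 sections, Akr1c18, Scd2 and Abcc4, and Nid1, a basement membrane gene, and the histidine-degrading Amdhd1 (-0.38 ± 0.08) completed those with the widest changes. None of 4 tested ductular, 12 macrophage, 2 neutrophil, 1 T and NK, 3 B and plasma and 10 endothelial cell genes passed; the other genes of these lists had too few UMIs to be tested. H19, which was 29.9 times higher in the detached piece, was not called (2.76 ± 0.65, edgeR quasi-likelihood adjusted p = 0.47). In STAM20w 40.04% of Afp-high but 1.23% of low spots lay in the detached piece, and without it 14 genes were called, 8 of them shared; Maoa, Axin2 and Nkd1 kept their calls and Col1a1 (0.41) lost its own. Without all 4 regions Axin2 (0.58) and Nkd1 (0.75) were no longer called. DESeq2 called 1 gene, Maoa. Leaving out a section gave 9 (without STAM16w), 24 (STAM20w, 2 shared), 19 (DEN22w) and 69 (DEN30w) calls. Of the 10 named genes Col1a1 alone was called each time; Maoa was lost without STAM20w, where Nkd1 and Abcc4 had too few UMIs to be tested.

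Slpi-high spots were richer in RNA of the fetal H19, of Mdk and of collagen genes, and poorer in that of the periportal Pck1, Sds and Pigr. 79 genes rose and 40 fell of 11286 tested (0.7% and 0.354%, in all 1.05%). H19 rose by 3.01 ± 0.29, with 3 against 1 UMIs in STAM16w, 557 against 40 in STAM20w, 3 against 0 in DEN22w and 95 against 29 in DEN30w (edgeR quasi-likelihood adjusted p = 0.00022). Mdk, the growth factor midkine, rose by 1.60 ± 0.27, from 16 to 81 UMIs in STAM20w and from 32 to 68 in DEN30w. 4 of 12 stellate cell genes rose, among them Col1a2 (0.77 ± 0.10, ratios 0.45, 0.71, 1.3 and 0.91, edgeR quasi-likelihood adjusted p = 0.00016), Col3a1 and Col1a1, which was lower in STAM16w (-0.50) on 12 against 17 UMIs. 2 of 6 tested ductular genes rose, Cldn7 and Spp1, the latter with ratios of 0.18, 1.14, -0.25 and 0.70, as did the platelet chemokine gene Pf4. The plasma cell gene Jchain also passed, on DEN30w: it had 266 against 71 UMIs there, 28 against 22 in STAM20w with 19 of the 28 in 1 spot, 0 against 1 in STAM16w and 1 against 0 in DEN22w. 3 of 12 periportal genes fell, Pck1 (-0.40 ± 0.08), which encodes the rate-limiting enzyme of gluconeogenesis, Sds and Pigr, and all 12 had negative estimates, with a median of -0.31. The sulphotransferase gene Sult2a7 fell by 0.93 on the log2 scale, mainly in STAM20w (ratio -1.24 against -0.24 to -0.25 elsewhere).

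The detached piece held 36.5% of Slpi-high but 2.29% of low spots of STAM20w; without it 116 genes rose and 111 fell, 75 shared with the 119, and H19 was still called at 1.44. Without the 10% of spots richest in Igkc 81 were called, 74 shared, H19 and Mdk among them; Spp1, Sds and Pigr no longer passed, though their estimates hardly moved, from 0.66 to 0.67, from -0.35 to -0.34 and from -0.31 to -0.32. DESeq2 called 11, Col1a2, Pck1 and Cd74 among them, and with library sizes alone 139 rose and 30 fell, without Spp1 and Pigr. Left-out sections gave 56 (DEN30w) to 130 (DEN22w) calls; 34 of the 119 were still called without STAM20w. Of the 30 named genes Col1a2 and Gpnmb were tested and called each time; H19, Mdk, Cldn7, Jchain and Pf4 had too few UMIs to be tested without STAM20w or without DEN30w.

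Cd24a-high spots were richer in RNA of the ductular gene Spp1, of Sox4 and H19 and of collagen genes. 38 genes rose and 9 fell of 9542 tested (0.398% and 0.0943%, in all 0.493%). Spp1 rose by 1.18 ± 0.17 with ratios of 1.91, 1.61, 0.76 and 0.71 (edgeR quasi-likelihood adjusted p = 0.022), and Sox4, a transcription factor of progenitor cells, by 0.97 ± 0.21, from 74 to 151 UMIs in STAM20w and from 12 to 24 in DEN30w. Tmsb10, an actin-binding thymosin, Pdzk1ip1 and Mgp, the matrix Gla protein, were higher in all 4 sections. H19 rose by 1.48 ± 0.18, but with 6 against 8 UMIs in STAM16w the direction there was opposite. The haemoglobin gene Hba-a1 rose by 0.79 ± 0.15, from 153 to 395 UMIs in DEN30w and with 9 in each class of DEN22w. Cd74 (0.43) and Trib3 (0.68), the latter lower in 2 sections, were called too. 3 of 10 tested stellate cell genes rose, Col1a2 in all 4 sections and Col1a1 and Col3a1 in 3, with ratios of -0.83 and -0.72 in DEN22w, beside the YAP target Ccn2. Mup11, Fcna, Haao and Slc37a4, hepatocyte or Kupffer cell genes, fell by 0.33 to 0.51 on the log2 scale; the Mup genes are near-identical copies whose reads the counting may have divided unevenly. Of the other 11 ductular genes, 2 were abundant enough to be tested and neither passed. The detached piece held 34.6% of Cd24a-high and 2.47% of low spots, and without it 50 genes were called, 21 shared. H19 then stood at 0.11 and Sox4 at 0.79, neither called, nor was Col1a2, at 0.40 against 0.68 with it, while Spp1 was called at 1.15. Without all 4 regions Spp1 (1.07), Col1a1 (0.44) and Col1a2 (0.39) were not called. DESeq2 called 2, Spp1 and Tmsb10, and these 2 were not called with library sizes alone. Without STAM20w 24 genes were called, 8 shared; H19, Sox4, Ccn2 and Pdzk1ip1 could not be tested there or without DEN30w, and Col1a1 and Col1a2 were called with each section left out.

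Cd44-high spots were richer in macrophage, collagen and immunoglobulin genes at small folds, and poorer in periportal hepatocyte genes. 113 genes rose and 101 fell of 11664 tested (0.969% and 0.866%, in all 1.83%). Igkc rose by 0.88 ± 0.06 (ratios 0.54, 0.54, 0.41 and 1.04; edgeR quasi-likelihood adjusted p = 1.4e-20), Cd74, the invariant chain of class II antigen presentation, by 0.42 ± 0.04 (0.21, 0.56, 0.26 and 0.53) and the lysozyme gene Lyz2 by 0.38 ± 0.04 (0.46, 0.51, 0.28 and 0.42). 7 of 12 macrophage genes rose, C1qa, C1qb, Cd68, Cd5l, Lyz2, Gpnmb and Mmp12, and all 12 had positive estimates. 5 of 12 stellate cell genes rose, Col1a1 (0.68 ± 0.07) most among them. Igkc, Cd74, Lyz2 and Col1a1 were higher in all 4 sections, whereas Col3a1 was lower in DEN22w (-0.19) and Gpnmb (-0.51) and Ighm (-0.23) in STAM16w. 7 of 12 periportal genes fell, Hal, Pck1, Etnppl, Arg1, G6pc, Ass1 and Cps1, by 0.14 to 0.25 on the log2 scale; their summed level was lower in 3 sections (-0.19, -0.06 and -0.17) and not in STAM16w (0.04). 4 of 12 acute phase genes fell, Saa1, Saa2, Fga and Orm1. Of 7 tested cholangiocyte and ductular genes Spp1 alone passed, and 5 on the list had too few UMIs to be tested. With library sizes alone 215 rose and 28 fell, and of the 7 periportal genes Pck1 and Hal were still called. DESeq2 called 4 genes, Igkc, Lyz2 and Cd74 among them, and 57 to 340 were called with a section left out (DEN30w and STAM16w); without STAM20w 71 were.

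**Figure D5:**
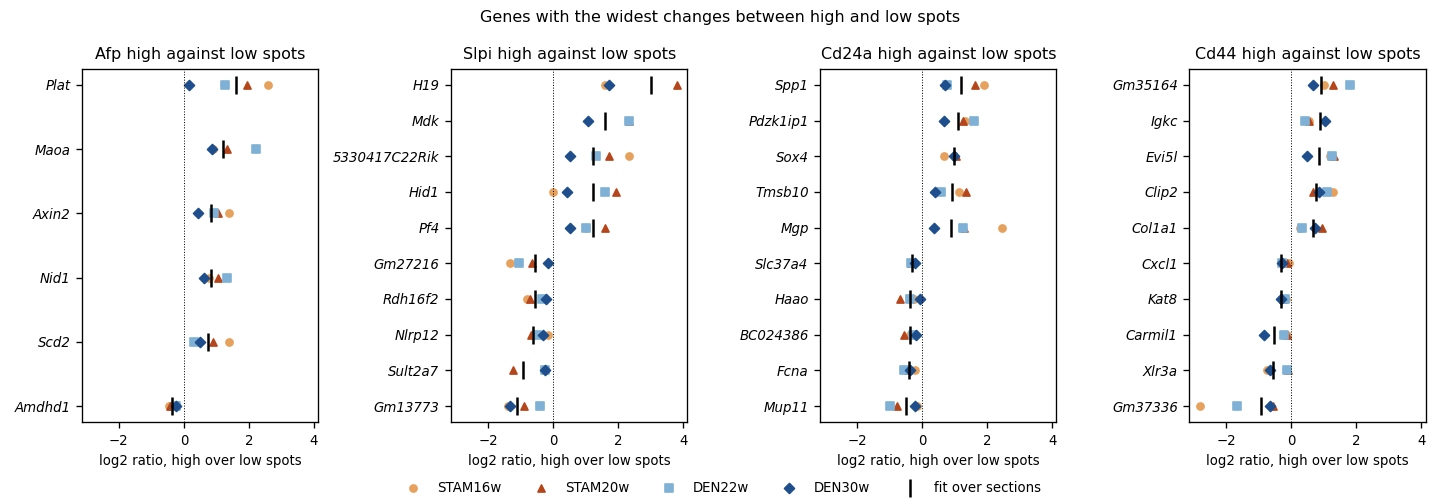
Log2 ratio of UMI sums in high over low spots, 1 symbol per section and a bar for the fit, for the genes with the widest called changes that kept 1 sign in every section where the ratio could be taken. The H19 symbol of STAM20w in Slpi-high spots lies at 3.80 and those of STAM16w and DEN30w at 1.59 and 1.71.

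In Ly6d-high spots few genes passed, among them Sprr1a and the pericentral Glul. 13 genes rose and 1 fell of 11491 tested (0.113% and 0.0087%, in all 0.122%). Sprr1a, a cornified envelope gene, rose by 2.05 ± 0.15 with ratios of 1.13, 2.49, 1.58 and 2.13 (edgeR quasi-likelihood adjusted p = 0.00073). Glul, the glutamine synthetase of the last hepatocytes around the central vein and a Wnt target, rose by 0.87 ± 0.12 with ratios of 0.66, 1.52, 0.88 and 0.77. Gipc2, Slc1a5, a glutamine carrier, Sox4, Cyp2a22 and Fgf21 rose and Mup21 fell, each with 1 sign in all 4 sections. All 10 Wnt target genes had positive estimates and 1, Glul, passed; all 12 periportal genes had negative ones and none passed, with a median of -0.65. Counts rested on the sections: 1 without STAM16w, 383 without STAM20w, 5 without DEN30w, 10 without DEN22w and 4 without the detached piece, where Glul (0.91) was not called, and DESeq2 called 53, 27 higher and 26 lower, 10 of them shared.

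For the sparse markers few genes passed. In Gpc3-high spots of the 3 sections with at least 20 pairs, 7 genes rose and 1 fell of 5508 (0.127% and 0.0182%, in all 0.145%): Sprr1a (1.55 ± 0.25), Lgals3, which encodes galectin-3, S100a11 and the collagens Col1a1, Col1a2 and Col3a1 rose, and Pck1 fell by 0.32 on the log2 scale. 3 of 6 tested stellate cell genes were thus among them. In Prom1-high spots, again 3 sections, 6 rose and 3 fell of 10743 (0.0559% and 0.0279%, in all 0.0838%), Spp1 by 0.91 ± 0.14 (ratios 0.70, 1.93 and 0.94), Nkd1 and Ighm rising and Mup17 and Mup11 falling. The Mup falls rested on the regions of STAM20w: without them Mup17 went from -0.85 to -0.21 and Mup11 from -0.77 to 0.0113, and neither was called, nor was Spp1 (0.88). No call of a named gene survived without DEN30w. In Golm1-high spots 6 rose and 13 fell of 10159 (0.0591% and 0.128%, in all 0.187%): H19 (0.995 ± 0.16, with 4 against 7 UMIs in DEN22w), Igkc (0.61 ± 0.08, ratio 0.70 in DEN30w and from -0.00 to 0.35 elsewhere), Tmsb10 and Spp1 rose, and Mup9, Mup11, Mup7, Cyp4a14, Ces3b and the periportal Pck1 and Sds fell by 0.18 to 0.27 on the log2 scale. Without the detached piece H19 stood at 0.49 and Tmsb10 at 0.20, and these, Mup11 and Cyp4a14 were no longer called. Sections left out gave 9 to 11 calls for Gpc3, 1 (without DEN30w) to 23 (without DEN22w) for Prom1 and 2 (without STAM16w) to 38 (without DEN30w) for Golm1. For Gpc3 these were mostly other genes. Of its 8 calls, 1 was kept without STAM20w, 3 without DEN22w and 1 without DEN30w. None of its 7 named genes was tested and called each time. DESeq2 called 0, 1 and 0, with 26, 54 and 81 genes at an unadjusted p under 0.05; library sizes alone gave 24 higher and 4 lower for Prom1 and 12 and 3 for Golm1.

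Anpep-high spots gave no called gene of 11667 (0%) by edgeR, with 734 at an unadjusted p under 0.05, and none by DESeq2, with 126. The lowest edgeR quasi-likelihood adjusted p was 0.079. All 10 Wnt target genes had positive and all 12 periportal genes negative estimates, with medians of 0.58 and -0.30, and the summed Wnt target level was 1.25 higher on the log2 scale in STAM20w against 0.12 to 0.27 elsewhere. Without STAM20w 13 genes rose and 52 fell.

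Some of these differences were themselves unequal between the models, by the interaction term of the same edgeR quasi-likelihood fit over 4 sections. The spot classes were not alike in every section. For Afp and Cd24a, high spots were the top 20% by CPM in STAM20w and all spots with a UMI elsewhere. Week also differed between the models, and the term was not refitted without the detached piece, so model cannot be told apart from these. At an adjusted p of 0.05 it called 0.204% of genes for Slpi, 0.231% for Cd24a, 0.0571% for Afp, 0.0591% for Golm1, 0.0429% for Anpep, 0.0087% for Ly6d and 0% for Cd44; the lone Ly6d gene was Ighg2b. Without the 1 spot of STAM20w richest in Igkc, chosen after seeing the data, the interaction called 4 in place of 6 genes for Afp. The log2 ratio of Spp1 in Cd24a-high spots was 0.88 ± 0.17 larger in the STAM sections (edgeR quasi-likelihood adjusted p = 0.0018). DESeq2 called the interaction for 1 gene with Afp and for none with the other markers. Gpc3 and Prom1 had too few pairs in STAM16w for this comparison.

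Genes with spatial patterns like those of the markers were sought in the section where each marker was highest, as Pearson r of log2(CPM + 1) over each spot and its touching spots. In STAM20w, over 2833 overlapping spot groups of 1 library, Afp was nearest to ribosomal protein genes (Rps12, r = 0.50) and Fabp4 (0.48), Slpi to Rpl41 (0.47), Tmsb10 (0.46) and Afp (0.44), Cd24a to Tmsb10 (0.52) and Spp1 (0.50), Ly6d to Plin2 (0.56), the lipid droplet coat gene, and Gstm3 (0.50), and Cd44 to Rgs5 (0.43). Their r with the log2 UMI total was 0.32, 0.25, 0.18, 0.18 and 0.47. No gene reached 0.4 with Gpc3, Prom1 or Golm1 in DEN30w or with Anpep in STAM20w.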

How the data were processed

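UMI counts per gene and spot of 4 mouse liver sections were used as the authors deposited them, whole and not normalized. Visium libraries were made from stained 10 µm fresh-frozen sections, per the labels' protocols. Per the submitters' processing notes the tools were Space Ranger 1.3.1 and STAR and the genome build was mm10; settings and annotation are not given in the sources used here. The members, gene lists and regions were chosen with earlier results of these data known.

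Spots with at least 500 UMIs and 250 genes were kept; no doublet caller was run, since a spot is not a cell. High spots had 1 or more UMIs of a marker, or were the top 20% by CPM where 20% or more of the section's spots had one. Each was paired without replacement to the spot of nearest total within 0.1 on the log10 scale that had 0 UMIs, or lay in the lower 50% by CPM where most spots had the gene. At least 20 pairs in each of 3 or more sections were required. Sums per section and class were fitted with edgeR 4.0.16 (R 4.3.3; TMM, filterByExpr, robust quasi-likelihood, section block) with Benjamini-Hochberg adjustment over all genes. The difference between models was the interaction term. Named genes are, per comparison, the 5 called with the widest rise and the 5 with the widest fall among those of 1 sign in every section and at least 10 UMIs, and called members of 21 fixed lists. Some unnamed gene models of that rule appear in the plot only. Genes singled out beyond it, such as H19 in Afp-high spots, were chosen after their values were seen. Python 3.11.15, numpy 2.4.6 and scipy 1.17.1 made the descriptions; thinned shares are expectations under sampling to 2000 UMIs. Regions of STAM20w are areas where the summed level of the genes named with them, over a spot and its touching spots, passed 0.5 times its 98 percentile. Contrasts were tested on simulated data. Alternatives were DESeq2 1.42.0, library sizes alone, no filter, no section block, depth within 0.05, stricter high spots, sections left out, all deposited spots, thinning to 1000 UMIs and other floors, and, chosen after seeing the data, spots left out of STAM20w, the 1 spot there richest in Igkc among them, or rich in Igkc. Intervals are exact at 95%.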

Additional observations from a re-analysis of the deposited data

Results flagged for a closer look

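The change between high and low spots differed between the models for some genes, by the interaction term of edgeR's quasi-likelihood fit over 4 sections at an adjusted p of 0.05: 6 genes for Afp, 1 for Ly6d, 23 for Slpi, 22 for Cd24a, 6 for Golm1 and 5 for Anpep. For Cd44 none did, with 460 at an unadjusted p under 0.05. The limits given above for this term, from unlike spot classes, the detached piece and week, hold here too. DESeq2 called the interaction for 1 gene with Afp and for none with the others, with 32 genes for Afp, 90 for Ly6d, 41 for Slpi, 29 for Cd24a, 22 for Golm1, 28 for Anpep and 4 for Cd44 at an unadjusted p under 0.05.

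Immunoglobulin genes led several of these counts, and 1 spot of STAM20w with 585 Igkc and 592 Ighg2b UMIs bears on them: it lay among the low spots for Afp and Cd24a, among the high spots for Slpi and in neither class for Ly6d. Ighg2b differed by -4.10 with Afp and -5.30 with Cd24a (STAM minus DEN+CCL4), and without that spot by -1.41 (edgeR quasi-likelihood adjusted p = 0.12) and -2.31 (2.19e-07). Igkc went from -2.74 to -1.35 with Afp, no longer called, and from -3.52 to -1.66 with Cd24a, still called. With Slpi Ighg2b turned from 1.65 to -1.55, called both times with opposite signs (edgeR quasi-likelihood adjusted p = 5.93e-05 and 0.0053). Igkc with Slpi went from -0.48, not called, to -2.38 (edgeR quasi-likelihood adjusted p = 1.18e-09). Without the spot 4 genes were called for Afp, 23 for Slpi and 24 for Cd24a.

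The leading genes other than immunoglobulin genes were these. Hba-a2, an alpha globin with a near-identical copy, differed by -1.32 on the log2 scale (STAM minus DEN+CCL4) with Afp: its ratios in Afp-high spots were 0.23 in both STAM sections, 1.49 in DEN22w and 1.47 in DEN30w (edgeR quasi-likelihood adjusted p = 0.00038). Fabp4, a fatty acid carrier of adipocytes and endothelium, differed by 1.45 with Slpi; its ratios were 2.02 in STAM20w and 0.94 in STAM16w, against 0.33 in DEN30w and 0.45 in DEN22w. Fabp5 differed by 1.41 with Cd24a and by 0.96 with Golm1; its ratio in Cd24a-high spots was 1.85 in STAM20w and 0.19 to 0.38 elsewhere. Cpe, a peptide-processing carboxypeptidase that marks the Cpe patch, differed by 2.74 with Anpep; its ratios were 3.19 in STAM20w and 1.17 in STAM16w, against 0.41 in DEN30w and -0.10 in DEN22w. Ighg2b was the single gene with Ly6d, at ratios of -2.57 in STAM20w, on 19 against 112 UMIs, and 0.98 in DEN30w.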

How the results depend on the processing

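Counts of called genes depended on most settings. DESeq2 called 1 gene for Afp, 0 for Gpc3, 53 for Ly6d, 11 for Slpi, 2 for Cd24a, 1 for Prom1, 0 for Golm1 and 4 for Cd44, and without the section block edgeR called 0 for each marker. With no filter on low counts the calls were 221 for Afp, 18 for Gpc3, 217 for Ly6d, 366 for Slpi, 164 for Cd24a, 61 for Prom1, 44 for Golm1 and 161 for Anpep; with library sizes alone they were 13 for Gpc3, 27 for Ly6d and 28 for Prom1. Stricter high spots gave 42 for Afp, 35 for Ly6d and 102 for Cd44, and depth matched within 0.05 gave 2 for Anpep. Chosen after seeing the data, leaving out the detached piece gave 4 for Ly6d and 227 for Slpi, and leaving out all 4 regions gave 38 for Afp, 297 for Ly6d, 219 for Slpi, 35 for Anpep and 120 for Cd44. Leaving out the 1 spot of STAM20w richest in Igkc moved no count past 1.5 times, though the interaction of Ighg2b with Slpi changed sign. The other counts under these settings lay within 1.5 times the main ones. With each section left out in turn the calls ran from 9 to 69 for Afp, 9 to 11 for Gpc3, 1 to 383 for Ly6d, 56 to 130 for Slpi, 24 to 69 for Cd24a, 1 to 23 for Prom1, 2 to 38 for Golm1, 1 to 65 for Anpep, 57 to 340 for Cd44 and 2 to 1130 for STAM against DEN+CCL4. That comparison gave 1517 by DESeq2, 14 with library sizes alone and 1412 with no filter, beside 60. The interaction with no filter gave 42 for Afp, 82 for Ly6d, 40 for Slpi, 18 for Golm1 and 42 for Anpep, and by DESeq2 1 for Afp and 0 for Ly6d, Slpi, Cd24a, Golm1 and Anpep. Between the times, a floor of 20 CPM left 527 genes past the fold in STAM and 184 in DEN+CCL4, with 3 of the 9 markers in DEN+CCL4, and a fold of 1.5 gave 2562 and 1203.

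Of the calls of genes named with a marker, DESeq2 kept 14 of 114 and library sizes alone 115 of 137. Without the detached piece 99 were kept and 27 lost, and without all 4 regions 75 were kept, 42 lost and 2 reversed: Mup11 with Prom1, at 0.0113, and Nupr1 with Cd44, at -0.0049. Over the sections left out 295 were kept and 197 lost. The later over the earlier STAM section changed sides for Golm1 (0.957) and Anpep (0.993) without all 4 regions. The 36 levels did not move with all deposited spots. The cause of these shifts was not tested. Too few pairs remained for stricter high spots of Gpc3, Slpi, Cd24a, Prom1 and Golm1 and for Gpc3 without STAM20w regions. The section block pairs high and low spots of 1 section. No paired analysis was possible because, between models or times, the labels carry no replicate numbers that pair sections. Depth limits Gpc3 most, with 6 to 100 UMIs per section.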

Other observations

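Very few spots held nearly all markers at once. Spots with 5 of the 9 markers made up 9.46% of STAM20w and 4.85% of DEN30w. 1 spot of STAM20w and 1 of DEN30w had UMIs of 8 of the 9 markers, with 25794 and 9779 UMIs in total. In STAM20w 3.53% of spots had none of the 9, at a median of 1356 UMIs, and in DEN22w 34.6%, at 5339.5.

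Tmsb10, like Spp1, differed more between Cd24a-high and low spots in the STAM sections, with log2 ratios of 1.14 in STAM16w and 1.36 in STAM20w against 0.57 in DEN22w and 0.39 in DEN30w.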
